A study of Mus musculus with 8 samples.

Results

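The 40 genes described here make the machinery that copies DNA in S phase, together with the E2F factors that control it. They were taken by name from a list that covers origin recognition and loading, the replicative helicase, its activating kinase, the polymerases, the sliding clamp and its loader, nucleotide supply and E2f1 to E2f4. All 40 were found by symbol among the 55421 gene identifiers of the count table, and all 40 were among the 15137 genes with enough counts to be tested.

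RNA came from E14 cells, a mouse embryonic stem cell line with a 129/Ola background and a blastocyst origin, and reads were taken from the 3′ end of each polyadenylated transcript. There were 8 libraries in 4 groups of 2 biological duplicates, and every library came from cells grown in 15% serum with 100 U/ml LIF on gelatin. The siTfap4 cells were knockout cells for the microRNA cluster miR-290-295 that received a siPOOL, a mixture of many small interfering RNAs, against Tfap4 at 5 nM for 36 hours, and the siNeg cells were the same knockout cells with a negative control siPOOL. The KO cells lacked the cluster and the WT cells carried it. Neither had a siPOOL in its title, although the treatment text that the labels repeat for all 8 samples speaks of siPOOL transfection. The siTfap4, siNeg and KO groups therefore all share the deletion, no group restores the cluster, and the labels do not say whether KO1 and KO2 are clones. Per the series' design text, KO and WT made up 1 set in preparation and sequencing and the 4 siPOOL libraries another. The KO and WT titles end in suffixes that differ within their set and are not explained. The 2 comparisons share no library.

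Origins of replication are marked by the origin recognition complex, on which CDC6 and CDT1 load the ring of MCM proteins during G1, a step called licensing. In S phase the kinase CDC7 with DBF4 activates the loaded ring, which joins CDC45 and the GINS complex to form the working helicase, and polymerases then copy both strands behind it. E2F factors control the transcription of many of these genes. Mouse embryonic stem cells are known for a short G1 phase, and microRNAs of this cluster are known to speed passage from G1 to S.

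Library totals lay between 8326675 and 12726123 counts, and the 40 genes held 0.559% to 0.680% of them, with 51 to 9414 counts per gene and library. The siTfap4 libraries had the lowest totals, 8326675 and 8829051, and the fewest genes with a count, 19271 and 19432. The other libraries had at least 9925557 counts and 20264 to 21183 such genes. Levels are CPM, a gene's counts scaled to library size with TMM factors. They are not divided by transcript length because each transcript gives reads from its 3′ end, so they are compared between libraries and not between genes. The median gap between duplicates over the 40 genes, as an absolute log2 ratio, was 0.40 in siTfap4, 0.29 in siNeg, 0.094 in KO and 0.14 in WT. The siTfap4 duplicates were the furthest apart, with Gins2 2.57-fold apart between them, and replicate 1 lay further from the siNeg mean than replicate 2 for 32 of the 40 genes. With 2 libraries a group the p-values rest on a gene's spread between duplicates, pooled over the 4 groups. The fit also draws that spread toward the spread of all tested genes.

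The 5 stem cell markers Pou5f1, Sox2, Nanog, Zfp42 and Esrrb summed to 1635 and 1667 CPM in siTfap4, 2016 and 1797 CPM in siNeg, 2156 and 2000 CPM in KO and 1714 and 1687 CPM in WT. Trophectoderm markers summed to between 3.41 and 11.5 CPM in all 8 libraries. Tfap4 itself, which encodes a factor that binds E-box sequences, stood at 12.4 and 15.8 CPM in siTfap4, against 34.4 and 37.4 CPM in siNeg, and at 49.0 and 42.1 CPM in KO, against 19.7 and 16.4 CPM in WT. The gene was lower in both libraries labelled siTfap4, with log2 fold changes of -1.35 (SE 0.27) for siTfap4 against siNeg and 1.33 (SE 0.26) for KO against WT.

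The comparison of siTfap4 with siNeg asks what follows the knockdown of Tfap4 in cells that lack the cluster. The replication genes split. E2f4, Mcm4, Rrm2, Gmnn, Mcm6 and 7 others fell, while E2f2, E2f1, Rfc5, Rfc2 and Rpa2 rose. Of the 40 genes, 17 were called at an adjusted p under 0.05 (edgeR), which is 42.5% of them beside 15.4% of all tested genes. The 12 that fell compare with 11.1% of tested genes called lower, and the 5 that rose with 4.36% called higher. The median log2 fold change was 0.005 over the 40 genes and 0.01 over all tested genes. Among the 11041 genes with at least 5 CPM in at least 2 libraries, 21.8% were called, beside the same 17 of the 40. The 40 genes were chosen with earlier results of these data known. In bulk RNA, fewer cells in S phase and less RNA per cell cannot be told apart.

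**Figure D1:**
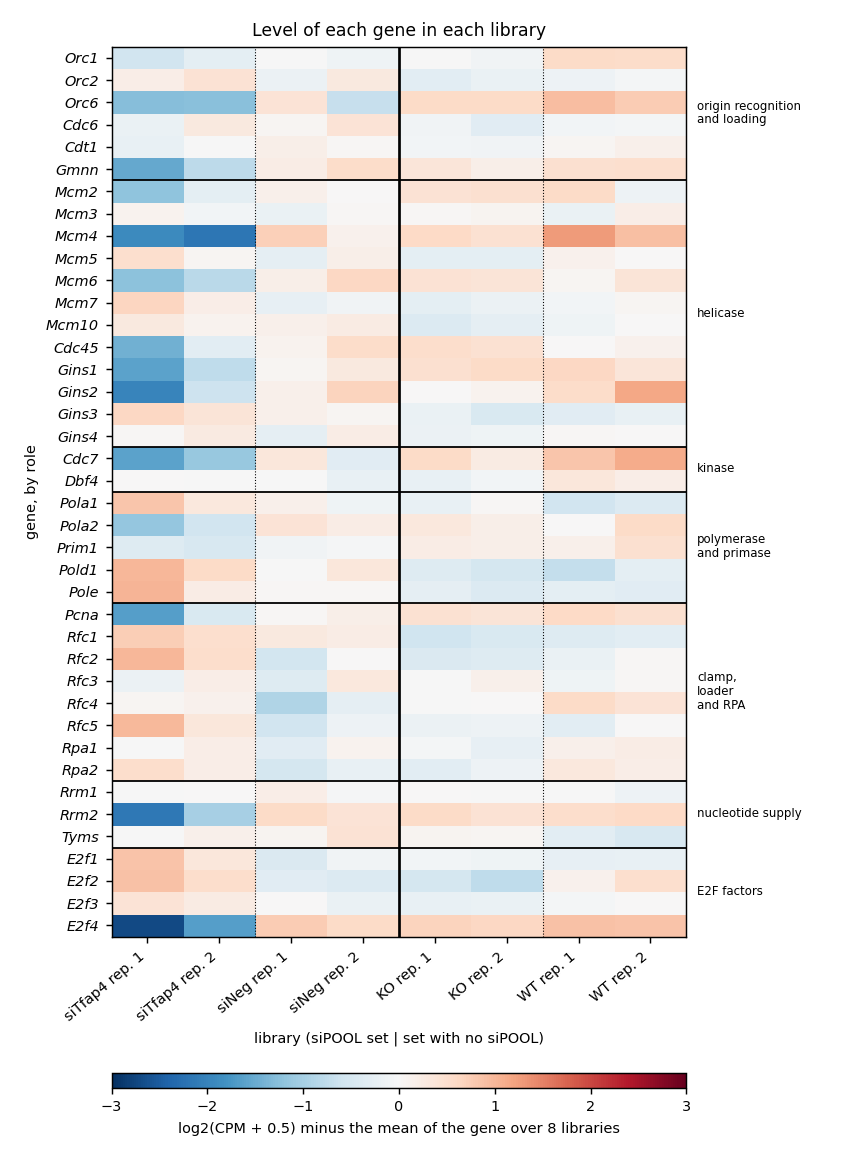
Each row is 1 of the 40 genes, grouped by role, and each column 1 library, with siTfap4 and siNeg left of the thick line and KO and WT right of it. Colour gives log2(CPM + 0.5) minus the mean of that gene over the 8 libraries. The 2 siTfap4 columns hold the deepest blue (E2f4, Mcm4, Rrm2) and also red for genes such as Rfc2, Rfc5 and E2f1, and replicate 1 is the more extreme of the 2 for most genes.

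Among the genes for origin recognition and loading, 2 of 6 fell and 0 rose. Gmnn, which encodes geminin, the inhibitor of CDT1 that prevents a repeat round of licensing, had 28.2 and 47.7 CPM in siTfap4, against 95.5 and 121 CPM in siNeg. Both siTfap4 libraries lay below both siNeg libraries, and Gmnn was 2.85-fold lower by the fitted means (log2 fold change -1.51, SE 0.27, edgeR adjusted p = 0.00157). Orc6, a subunit of the origin recognition complex, had 16.7 and 16.9 CPM in siTfap4, against 54.7 and 25.5 CPM in siNeg. The siTfap4 duplicates were close and both below siNeg, while the siNeg duplicates were 2.13-fold apart (log2 fold change -1.26, SE 0.32, adjusted p = 0.0144). Cdt1, the gene of this role with the most counts, had 166 and 193 CPM in siTfap4, against 219 and 200 CPM in siNeg, a log2 fold change of -0.22 that was not called. Orc1, Orc2 and Cdc6 had log2 fold changes between -0.35 and 0.24 and were not called. The groups did not overlap for Orc1 and overlapped for Orc2 and Cdc6.

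The helicase genes changed unevenly, with 5 of 12 falling and 0 rising. Mcm4, a subunit of the MCM ring, had 39.9 and 33.5 CPM in siTfap4, against 249 and 166 CPM in siNeg. This was 5.66-fold lower by the fitted means, with no overlap (log2 fold change -2.50, SE 0.27, edgeR adjusted p = 4.1e-05). Mcm6, another subunit of the ring, had 115 and 153 CPM in siTfap4, against 307 and 415 CPM in siNeg, again with no overlap (log2 fold change -1.43, SE 0.25, adjusted p = 0.00128). The remaining ring subunits were not called. Mcm2 had 99.9 and 188 CPM in siTfap4, against 257 and 232 CPM in siNeg, so that both siTfap4 libraries were the lower ones but replicate 1 much more so (log2 fold change -0.77, SE 0.29, adjusted p = 0.0874). Mcm7 had 1002 and 741 CPM in siTfap4, against 538 and 598 CPM in siNeg (log2 fold change 0.62, SE 0.23, adjusted p = 0.0791). It was the ring subunit with both siTfap4 libraries above both siNeg libraries, and its 3′ end overlaps Cops6 on the other strand. Mcm3, with the most counts of the role, had 753 and 663 CPM in siTfap4, against 611 and 719 CPM in siNeg, with overlap and a log2 fold change of 0.09. Mcm5 had a log2 fold change of 0.34, and 34.7% of the 31-base words in its last 200 bases occur in other genes, so its counts are uncertain.

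The factors that complete the helicase also differed among themselves. Gins2 had 11.98 and 31.6 CPM in siTfap4, against 54.7 and 77.9 CPM in siNeg (log2 fold change -1.60, SE 0.37, edgeR adjusted p = 0.00959). Gins1 had 15.4 and 28.1 CPM in siTfap4, against 49.6 and 58.4 CPM in siNeg (log2 fold change -1.31, SE 0.29, adjusted p = 0.00632). Cdc45 had 14.7 and 33.0 CPM in siTfap4, against 43.9 and 60.4 CPM in siNeg (log2 fold change -1.12, SE 0.32, adjusted p = 0.0264). In all 3 genes the groups did not overlap and siTfap4 replicate 1 was the lowest of the 4 libraries. Gins3 and Gins4, which encode the other GINS subunits, had log2 fold changes of 0.41 and 0.18 and were not called, as was Mcm10, an origin firing factor gene, at -0.01. Gins2 overlaps Gse1 on the other strand at its 3′ end.

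Of the kinase pair, the catalytic subunit gene fell and its activator gene was not called. Cdc7 had 6.498 and 9.20 CPM in siTfap4, against 26.7 and 16.5 CPM in siNeg (log2 fold change -1.46, SE 0.33, edgeR adjusted p = 0.0076). Dbf4 had 239 and 238 CPM in siTfap4, against 237 and 203 CPM in siNeg, a log2 fold change of 0.12. The Cdc7 groups did not overlap, and in Dbf4 the siTfap4 libraries lay just above the higher siNeg library.

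The polymerase genes gave 1 fall among 5. Pola2, the regulatory subunit gene of the polymerase alpha that lays down primers with primase, had 25.1 and 37.7 CPM in siTfap4, against 75.1 and 66.2 CPM in siNeg (log2 fold change -1.17, SE 0.27, edgeR adjusted p = 0.00975). Pola1, which encodes the catalytic subunit of the same enzyme, went the other way in level, with 299 and 210 CPM in siTfap4, against 185 and 154 CPM in siNeg, and was not called (log2 fold change 0.59, SE 0.24, adjusted p = 0.109). Pole, the catalytic subunit gene of the leading-strand polymerase, had 160 and 92.2 CPM in siTfap4, against 80.2 and 80.1 CPM in siNeg. Its siTfap4 duplicates were far apart and it was not called (log2 fold change 0.65, SE 0.26, adjusted p = 0.0999). Pold1, the catalytic subunit gene of the lagging-strand polymerase, had 158 and 117 CPM in siTfap4, against 78.1 and 101 CPM in siNeg (log2 fold change 0.62, SE 0.25, adjusted p = 0.103). The primase gene Prim1 had a log2 fold change of -0.38 and was not called.

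The clamp gene fell, and 2 of the 5 genes of its loader and 1 of 2 RPA genes rose. Pcna, which encodes the sliding clamp that holds polymerases on DNA, had 46.3 and 107 CPM in siTfap4, against 152 and 168 CPM in siNeg (log2 fold change -1.06, SE 0.30, edgeR adjusted p = 0.0266). Rfc5, a clamp loader subunit gene, had 373 and 241 CPM in siTfap4, against 127 and 172 CPM in siNeg (log2 fold change 1.04, SE 0.26, adjusted p = 0.0134). Rfc2, another loader subunit gene, had 180 and 128 CPM in siTfap4, against 61.3 and 89.7 CPM in siNeg (log2 fold change 1.03, SE 0.26, adjusted p = 0.014). Each of these 3 genes had groups that did not overlap, with siTfap4 replicate 1 the furthest from siNeg. Rpa2, a subunit gene of the protein that coats single strands, had 442 and 349 CPM in siTfap4, against 210 and 260 CPM in siNeg (log2 fold change 0.75, SE 0.23, adjusted p = 0.0361). Rfc4 had 31.3 and 32.8 CPM in siTfap4, against 15.8 and 24.97 CPM in siNeg, with no overlap and no call (log2 fold change 0.66, SE 0.27, adjusted p = 0.113). Rfc1, Rfc3 and Rpa1 had log2 fold changes of 0.36, 0.02 and 0.19 and were not called. The 3′ ends of Rfc4 and Rfc5 overlap Eif4a2 and Wsb2 on the other strand, and the counting tool's strand setting is not given in the sources used here.

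In nucleotide supply, the gene of 1 of the 2 subunits of ribonucleotide reductase fell. Rrm2, whose product limits the activity of that enzyme in S phase, had 31.7 and 71.5 CPM in siTfap4, against 210 and 191 CPM in siNeg. It was 3.88-fold lower by the fitted means with no overlap (log2 fold change -1.96, SE 0.30, edgeR adjusted p = 0.000513). Rrm1, which encodes the larger subunit, had a log2 fold change of -0.09, and Tyms, the thymidylate synthase gene, one of -0.20. Neither was called and both overlapped between the groups.

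The E2F genes showed both the largest fall and the largest rise of the 40. E2f4, which encodes a factor known mainly as a repressor that acts with the pocket proteins, had 7.14 and 15.5 CPM in siTfap4, against 83.7 and 74.3 CPM in siNeg. It was 6.96-fold lower by the fitted means, with a wide gap between the groups (log2 fold change -2.80, SE 0.31, edgeR adjusted p = 4.217e-05). E2f2, an activator E2F gene, had 147 and 114 CPM in siTfap4, against 62.6 and 59.8 CPM in siNeg (log2 fold change 1.09, SE 0.24, adjusted p = 0.00744). E2f1, another activator gene, had 141 and 98.0 CPM in siTfap4, against 57.3 and 72.3 CPM in siNeg (log2 fold change 0.88, SE 0.25, adjusted p = 0.0248). Both activator genes had groups that did not overlap. E2f3 had a log2 fold change of 0.43 and was not called (adjusted p = 0.267).

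**Figure D2:**
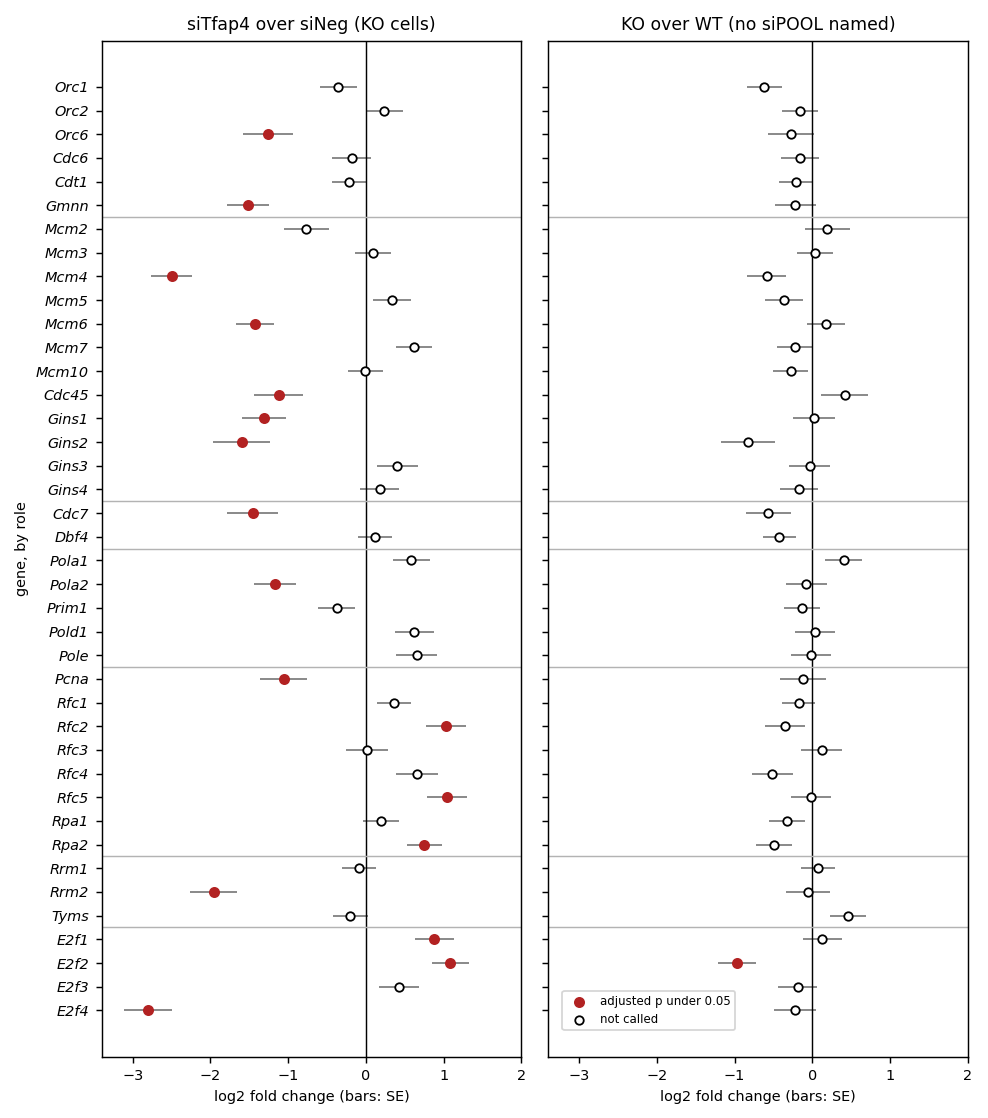
Points give the log2 fold change of each of the 40 genes, siTfap4 over siNeg on the left and KO over WT on the right, with bars of 1 SE, and filled points mark an adjusted p under 0.05. On the left 12 filled points lie below 0 and 5 above it, while on the right E2f2 is the 1 filled point.

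Over the 40 genes the groups did not overlap for 30, beside 58.3% of all tested genes. Of these, 14 were higher in siTfap4, which is 35.0% beside 28.9% of tested genes, and 16 were lower, 40% beside 29.3%. The 12 genes called lower summed to 359 and 585 CPM in siTfap4, against 1402 and 1439 CPM in siNeg. The 5 called higher summed to 1282 and 930 CPM in siTfap4, against 518 and 653 CPM in siNeg. The sum of all 40 was 6434 and 5822 CPM in siTfap4, against 5718 and 6222 CPM in siNeg, and overlapped. The called genes chose the first 2 of these sums, which are a description.

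**Figure D3:**
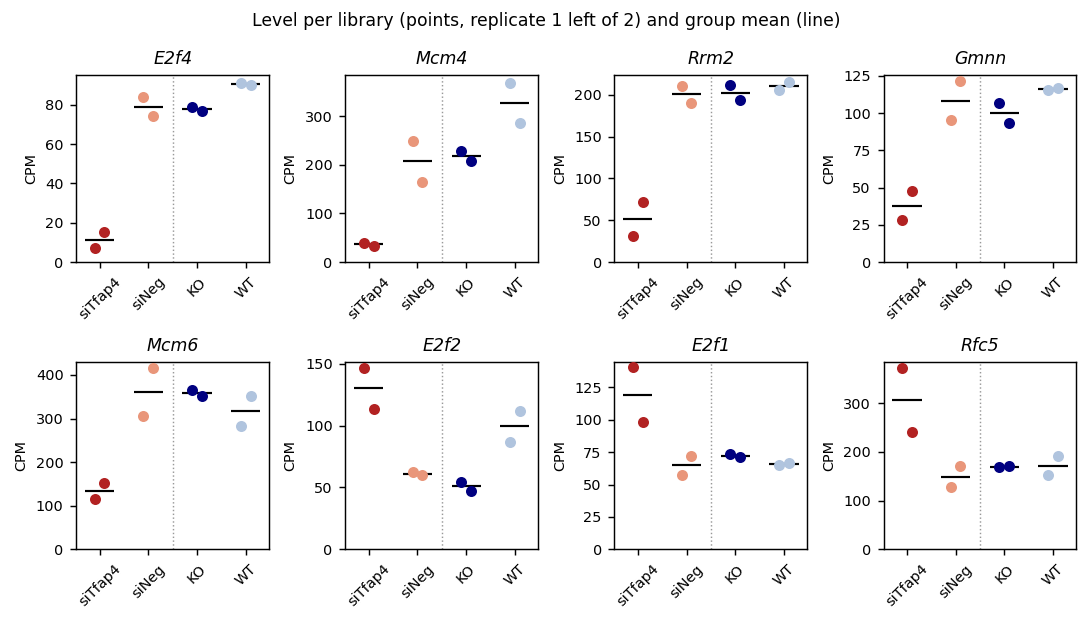
CPM per library for 8 of the genes, with siTfap4, siNeg, KO and WT from left to right, replicate 1 left of replicate 2 and a line at the group mean, on linear axes from 0. E2f4, Mcm4, Rrm2, Gmnn and Mcm6 are low in the 2 siTfap4 libraries alone, and E2f2 is lower in KO and siNeg than in siTfap4 and WT.

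Much of the count rests on 2 libraries. Without siTfap4 replicate 1, 5 of the 40 genes were called (0 higher), beside 3.3% of tested genes, and without siNeg replicate 1, 7 were called (0 higher), beside 4.84%. Without siTfap4 replicate 2 there were 22, beside 19.7%, and without siNeg replicate 2 there were 15, beside 13.1%. E2f4, Mcm4, Mcm6, Rrm2 and Gmnn were called in all 4 of these fits and in the 9 other alternative fits. Their log2 fold changes without 1 library ran from -3.47 to -2.35 for E2f4, -2.77 to -2.17 for Mcm4, -1.65 to -1.19 for Mcm6, -2.66 to -1.49 for Rrm2 and -1.94 to -1.18 for Gmnn.

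The other 12 calls were each lost when siTfap4 replicate 1 was left out. Without it the adjusted p was 0.128 for Orc6, 0.267 for Cdc45, 0.0967 for Gins1, 0.114 for Gins2, 0.123 for Cdc7, 0.135 for Pola2 and 0.239 for Pcna. Among the genes that rose it was 0.162 for Rfc2, 0.18 for Rfc5, 0.238 for Rpa2, 0.239 for E2f1 and 0.0804 for E2f2. Without siNeg replicate 1, the log2 fold change of Orc6 was -0.60 (adjusted p = 0.229), and Cdc45, Cdc7, Pola2, Pcna, Rfc2, Rfc5, Rpa2, E2f1 and E2f2 lost their calls as well (adjusted p from 0.0532 for E2f2 to 0.192 for Rpa2). Without siNeg replicate 2, Cdc45 (adjusted p = 0.146), Gins2 (0.0671) and Pcna (0.101) were not called. All 12 kept their sign in each of the 4 fits.

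The change after the Tfap4 siPOOL moved with the base composition of the transcript's 3′ end across all genes. With genes split into 5 quintiles of GC percent over the last 100 bases, the median log2 fold change of siTfap4 over siNeg was -0.47 in the lowest quintile, followed by -0.20, 0.03, 0.29 and 0.46 in those above it. For KO over WT these medians lay between -0.03 and 0.02. The 12 genes called lower had GC of 22% to 41% (median 28%) and the 5 called higher 37% to 53% (median 43%), where the median was 33% over all 40 and 37% over all tested genes. In the lowest quintile 8 of 13 members were called lower, beside 24.2% of the genes there.

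**Figure D4:**
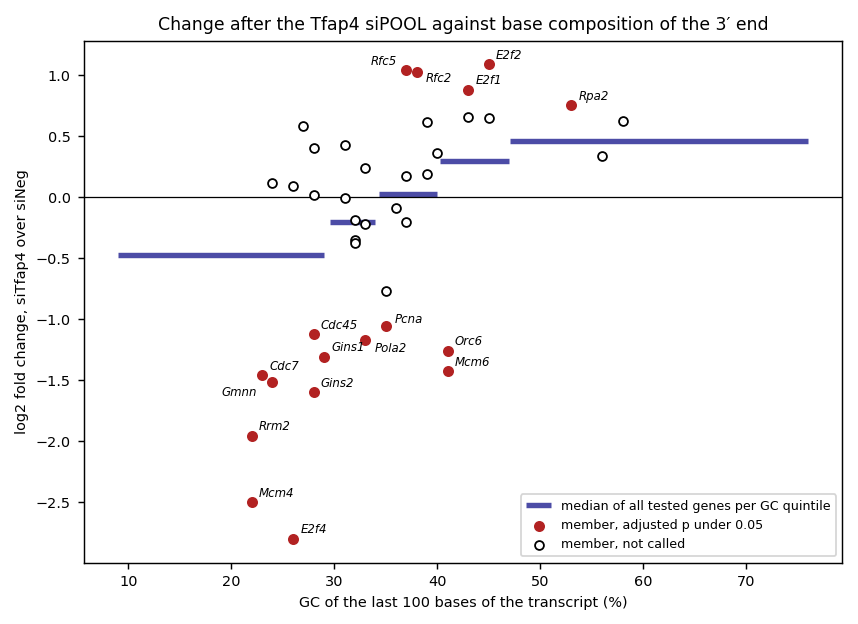
Each point is 1 of the 40 genes, placed by the GC percent of the last 100 bases of its transcript and its log2 fold change of siTfap4 over siNeg, and filled where the adjusted p was under 0.05. Horizontal bars give the median of all tested genes in each quintile of GC percent, which climbs from -0.47 to 0.46, and E2f4, Mcm4 and Rrm2 lie well below the bar of their quintile while Orc6 and Mcm6 lie below that of theirs at 41% GC.

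With an offset that removes the trend in GC, 16 of the 40 genes were called, beside 11.8% of tested genes. Of them 11 were lower, beside 8.14%, and 5 were higher, beside 3.67%. Cdc45 (log2 fold change -0.76, adjusted p = 0.118), Rpa2 (0.39, 0.239) and E2f1 (0.68, 0.0638) were then not called, and Pola1 (1.04, 0.0125) and Gins3 (0.82, 0.0477) were called higher. The offset left E2f4 at -2.36, Mcm4 at -1.95, Mcm6 at -1.55, Rrm2 at -1.46 and Gmnn at -1.06, each called. How much of the remaining change comes from base composition was not tested.

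Genes of the other phases and of cell identity moved beside these. Of 14 genes of G2 and mitosis, 5 fell in siTfap4 (Ccna2, Ccnb2, Cdk1, Aurkb and Bub1) and 1 rose (Ttk). Over all tested genes, 11.1% were called lower and 4.36% higher. Cdk1, the kinase that drives mitosis, averaged 30.6 ± 23.8 CPM in siTfap4 and 198 ± 59.2 CPM in siNeg (SD, n = 2 each). The 14 summed to 2332 and 2430 CPM in siTfap4, against 2760 and 2723 CPM in siNeg. Of the 5 stem cell markers, Nanog fell (log2 fold change -1.49, adjusted p = 0.00403) and Pou5f1 rose (1.02, adjusted p = 0.0121). Their part in the changes of the replication genes was not tested.

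Of 53 further genes of replication and the E2F pathway, chosen for their function, 12 fell in siTfap4 and 1 rose, with a median log2 fold change of -0.04, beside 0.01 over all tested genes. The 2 counts stand beside 11.1% of tested genes called lower and 4.36% called higher. By adjusted p the first was Dscc1, a subunit gene of an alternative clamp loader, at 3.35 ± 0.77 CPM in siTfap4 and 22.5 ± 9.12 CPM in siNeg (log2 fold change -2.74, edgeR adjusted p = 0.00019). Fen1, the flap endonuclease gene of Okazaki fragment processing, averaged 14.1 ± 1.81 CPM in siTfap4 and 56.2 ± 22.9 CPM in siNeg (-1.99, adjusted p = 0.000429). Tfdp1, the gene of the DP1 protein that pairs with E2F factors to bind DNA, averaged 15.6 ± 4.52 CPM in siTfap4 and 53.4 ± 6.78 CPM in siNeg (-1.78, adjusted p = 0.00067). These values are means with SD over n = 2 libraries. Next in order of adjusted p were Rnaseh2b, E2f6, a repressor E2F gene, and Dck, a nucleoside kinase gene, with log2 fold changes of -1.19, -1.89 and -1.63. With the GC offset 8 of the 53 fell and 1 rose, beside 8.14% of tested genes called lower and 3.67% called higher.

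The comparison of KO with WT asks how loss of the cluster relates to these genes, and here E2f2 was the 1 gene called. E2f2 had 54.8 and 46.9 CPM in KO, against 86.7 and 112 CPM in WT. Both KO libraries lay below both WT libraries, and E2f2 was 1.95-fold lower by the fitted means (log2 fold change -0.97, SE 0.24, edgeR adjusted p = 0.018). That is 1 of 40 genes, or 2.5%, beside 9.95% of all tested genes, and the 1 called lower compares with 3.96% of tested genes called lower. The 0 called higher compare with 5.99%, and at an unadjusted p under 0.05 there were 5 of 40, or 12.5%, beside 23.3%. DESeq2 and limma-voom also called 1 of the 40, beside 9.2% and 9.11% of all tested genes.

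The E2f2 call in KO rests on its libraries. With KO replicate 1 left out the log2 fold change was -1.08 and the adjusted p 0.0981, and it was no longer called. The same held with KO replicate 2 left out (-0.86, adjusted p = 0.205) and with WT replicate 2 left out (-0.77, adjusted p = 0.157). It was kept without WT replicate 1 (adjusted p = 0.0295) and under the 9 other alternative fits. The share of all tested genes called also fell, to 4.03%, 4.5%, 5.66% and 5.11% without KO replicate 1, KO replicate 2, WT replicate 1 and WT replicate 2.

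The uncalled genes with the widest gaps in KO were all lower. Gins2 had 49.8 and 52.5 CPM in KO, against 71.9 and 110 CPM in WT (log2 fold change -0.83, SE 0.35, edgeR adjusted p = 0.158). Orc1, the largest subunit gene of the origin recognition complex, had 65.2 and 61.0 CPM in KO, against 97.0 and 96.5 CPM in WT (log2 fold change -0.62, SE 0.23, adjusted p = 0.102). Mcm4 had 229 and 208 CPM in KO, against 369 and 286 CPM in WT (log2 fold change -0.59, SE 0.25, adjusted p = 0.158). Cdc7 with 31.3 and 24.99 CPM in KO, against 37.6 and 45.7 CPM in WT, and Rfc4 with 30.0 and 30.3 CPM in KO, against 45.4 and 40.5 CPM in WT, had log2 fold changes of -0.56 and -0.51. None of these 5 genes overlapped between the groups. In a fit of the KO and WT libraries by themselves, Gins2 (adjusted p = 0.0337), Orc1 (0.0335) and Mcm4 (0.0434) were called lower too. That made 4 of the 40, or 10%, beside 12.9% of the genes tested in that fit.

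Between KO and WT the groups did not overlap for 28 of the 40 genes, or 70.0%, beside 57.5% of all tested genes. Of these 23 were lower in KO, which is 57.5% of the 40 beside 28.6% of tested genes, and 5 were higher, 12.5% beside 28.9%. The median log2 fold change over the 40 was -0.17, beside -0.01 over all tested genes. The median level of the 40 varied between duplicates by 0.17 on the log2 scale (SDs of KO and WT combined). The median gap between duplicates was 0.094 in KO and 0.14 in WT over the 40, beside 0.22 and 0.29 over all tested genes. The part of these smaller gaps in the share not overlapping was not tested. Dbf4, the most counted gene of the kinase pair, had 204 and 226 CPM in KO, against 302 and 274 CPM in WT, a log2 fold change of -0.42 with no call. Rpa2 had 244 and 273 CPM in KO, against 377 and 352 CPM in WT (log2 fold change -0.49, adjusted p = 0.202). Cdt1 had 183 and 180 CPM in KO, against 204 and 216 CPM in WT, a log2 fold change of -0.21.

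Genes that lay above WT or level with it in KO had no call, and those given here are examples. Pola1 had 145 and 171 CPM in KO, against 113 and 126 CPM in WT (log2 fold change 0.40, adjusted p = 0.343). Cdc45 had a log2 fold change of 0.42, Tyms one of 0.46, E2f1 one of 0.13 and Rrm1 one of 0.07. With Pola1 they were the 5 genes higher in KO with no overlap. Rrm2 had 212 and 194 CPM in KO, against 206 and 215 CPM in WT, and Mcm3 had 720 and 744 CPM in KO, against 616 and 810 CPM in WT, both with overlap. Mcm2 was 1.65-fold apart between the WT duplicates, at 345 and 208 CPM, around the 311 and 322 CPM of KO.

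Markers of other cell types differed between KO and WT. Primitive endoderm markers summed to 9.25 and 8.83 CPM in KO, against 59.0 and 50.5 CPM in WT, with 3 of 5 called lower (Gata6, Sox17 and Dab2). Fibroblast or feeder markers summed to 11.9 and 23.0 CPM in KO, against 32.8 and 55.2 CPM in WT, with 2 of 3 tested genes called lower (Col1a1 and Thy1). Most of that sum was Thy1, at 9.56 and 19.7 CPM in KO, against 26.5 and 48.3 CPM in WT. Col1a1 had 5 and 4 counts in KO, against 21 and 17 in WT. Pdgfrb was not called, and Col1a2 and Fbln2 had too few counts to be tested. No marker of the 2 lists was at 0 in all 8 libraries. Whether such cells were present, and their part in the E2f2 difference, was not tested. Of the 14 genes of G2 and mitosis, 0 were called in either direction, and they summed to 2618 and 2324 CPM in KO, against 2771 and 2667 CPM in WT. Of the 53 further pathway genes, Chtf18, another subunit gene of the alternative clamp loader, rose (log2 fold change 0.87, adjusted p = 0.0339), and the polymerase delta subunit gene Pold2 (-0.82, adjusted p = 0.0418) and the RPA subunit gene Rpa3 (-1.52, adjusted p = 0.00508) fell. Over all tested genes, 5.99% were called higher in KO and 3.96% lower.

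E2f2 was the 1 gene of the 40 called in both comparisons, lower in KO than in WT and higher in siTfap4 than in siNeg. The difference between the 2 changes was tested directly and was 2.05 on the log2 scale (SE 0.34, edgeR adjusted p = 0.00106). It held in all 8 fits without 1 library, with adjusted p from 0.000775 to 0.00987. Taken in order, the mean level was 130 ± 23.2 CPM in siTfap4, 99.4 ± 17.9 CPM in WT, 61.2 ± 1.99 CPM in siNeg and 50.8 ± 5.53 CPM in KO (SD, n = 2 each). Each neighbour in this order was separate in its 2 libraries. But each of these gaps lies between a siPOOL group and a group of the other set. The sets were prepared apart, so none of the gaps, siNeg against KO included, can be told apart from the preparation.

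MicroRNAs of the cluster with a shared seed are printed here because the 3′ UTR of E2f2 holds several matches to it. They are those found in the reference used here and may not be all that the cluster has. A seed is the stretch of a microRNA that pairs with its targets, bases 2 to 8, and is in capitals. The sequences are those of RefSeq for GRCm38.p6, all on the plus strand: miR-290a-3p at chr7:3218674-3218697, miR-291a-3p at chr7:3218968-3218989, miR-291b-3p at chr7:3219529-3219550, miR-294-3p at chr7:3220691-3220712 and miR-295-3p at chr7:3220815-3220837. The first 6 bases of the seed are the same in all 5, and miR-291a-3p, miR-294-3p and miR-295-3p share all 7.
miR-291a-3p: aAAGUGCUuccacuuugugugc
miR-294-3p: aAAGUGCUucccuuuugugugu
miR-295-3p: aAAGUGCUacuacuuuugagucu
miR-290a-3p: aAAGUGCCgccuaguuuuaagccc
miR-291b-3p: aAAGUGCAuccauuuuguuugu

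The word GCACTT, the complement of the shared bases, was searched on the sense strand of 3′ UTRs, taking the longest one annotated for a gene. It is contained in AGCACTT, which matches the full seed of the first 3 microRNAs, and in GCACTTA, which adds an A after it, so the counts of the 3 words overlap. The median length searched was 868 bases over the 40 genes and 1140 over the tested genes, and the shares are not corrected for length. GCACTT was present in 18 of the 40 genes (45%) beside 33.0% of 12777 tested genes. AGCACTT was in 6 (15.0%, beside 17.3%) and GCACTTA in 5 (12.5%, beside 8.02%). E2f2 and Tyms held 3 copies of GCACTT each. The 3 stretches of E2f2 are shown in order from the stop codon, with the word in capitals. The word itself starts at bases 303, 533 and 1342 of a 3′ UTR of 3020 bases.
E2f2 match 1: tttttcaagaaGCACTTaacgcctttgt
E2f2 match 2: ttgaattaattGCACTTaggctttgtaa
E2f2 match 3: tcagtggggcaGCACTTtttgcttgttg

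A match is a description of letters and not a site shown to be used. E2f2 held 2 copies of AGCACTT and 2 of GCACTTA, and its level was lower in KO than in WT. Tyms, with 1 copy of AGCACTT and 2 of GCACTTA, had 120 and 119 CPM in KO, against 92.2 and 81.7 CPM in WT, with no overlap and no call (log2 fold change 0.46, SE 0.23, edgeR adjusted p = 0.238). Of the genes that fell most in siTfap4, E2f4, Mcm6 and Rrm2 held 1 copy of GCACTT each and Mcm4 and Gmnn none.

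The change in siTfap4 over siNeg differed from that in KO over WT for 11 of the 40 genes (27.5%), beside 15.9% of tested genes. Mcm4 (-1.91), Rrm2 (-1.90), Mcm6 (-1.61), E2f4 (-2.58), Cdc45 (-1.54), Gins1 (-1.33) and Gmnn (-1.29) had the lower value, on the log2 scale, in the siPOOL comparison, 7 genes beside 11.3% of tested genes. E2f2, Rfc2 (1.38), Rpa2 (1.25) and Rfc4 (1.17) had the higher one, 4 genes beside 4.6%. E2f2, E2f4, Mcm4, Mcm6 and Rrm2 were called in all 8 fits without 1 library. With the GC offset the count was 8, beside 13.9%, and Gmnn, Cdc45, Gins1, Rfc4 and Rpa2 were not among them (adjusted p from 0.0631 for Rpa2 to 0.153 for Gmnn). Dbf4 (1.04, adjusted p = 0.0284) and Rfc5 (1.15, adjusted p = 0.0448) were added.

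The count of 11 depended on the libraries. It was 5 without KO replicate 1 (beside 8.09% of tested genes), 5 without KO replicate 2 (9.65%) and 5 without siTfap4 replicate 1 (7.45%). It was 7 without WT replicate 1 (12.1%), without WT replicate 2 (9.91%) and without siNeg replicate 1 (7.96%). It was 18 without siTfap4 replicate 2 (18.3%) and 10 without siNeg replicate 2 (13.6%).

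Across the 4 groups, siTfap4 had the lowest mean level for 16 of the 40 genes and the highest for 15. KO had the lowest for 14 and the highest for 5, siNeg the lowest for 5 and the highest for 6, and WT the lowest for 5 and the highest for 14. For Orc6 and Pcna the order was WT, KO, siNeg and siTfap4, with each neighbour separate in its libraries. Levels of siPOOL groups against KO or WT, such as the step from KO to siNeg, cannot be told apart from the preparation. Mcm3, Gins4, Rfc3, Rpa1 and Rrm1 overlapped at every step of the order. The widest ratio of the highest to the lowest group mean was 8.93 for Mcm4 and 8.03 for E2f4, and the narrowest 1.09 for Rfc3.

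The genes outside the 40 whose log2 CPM followed the mean of Mcm2 to Mcm7 most closely over the 8 libraries were Shq1 (Pearson r = 0.997), AC117239.2 (0.992), Foxn2 (0.988), Gm20305 (0.987) and Ccdc127 (0.985). They were the 5 highest of all tested genes outside the 40. Mcm2 to Mcm7 did not move together, so their mean is not a pattern that all of them share. In siTfap4 over siNeg their log2 fold changes ran from -2.50 for Mcm4 to 0.62 for Mcm7. The libraries compared differ in set, depth and 3′ base composition as well as in group, and the values are descriptions.

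Promoters of 32 of the 40 genes were held in the RefSeq table used here, as windows of 300 bases from 250 before the start to 50 after it. The words TTTCCCGC, TTTGGCGC and TTTCGCGC, which match the known E2F motif, were searched on both strands. At least 1 of them was present in 13 of the 32 genes (40.6%), beside 2.12% of 27025 genes and 4.15% of 10552 tested genes with a window. CCAAT, the word bound by the factor NF-Y, was in 22 (68.8%), beside 41.1% of all genes. CAGCTG, an E-box to which TFAP4 binds and which reads the same on both strands, was in 5 (15.6%), beside 18.3% of all genes: Cdc6, Orc1, Pola2, Rpa1 and Rrm2. Of these 5, Pola2 and Rrm2 fell in siTfap4 and the rest were not called, beside 11.1% of all tested genes called lower.

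The windows of Mcm6 and Rrm2, which fell in siTfap4, and of E2f2, which rose, are printed as examples of each kind of word, 5′ to 3′ on the strand of the gene in RefSeq's GRCm38.p6, with the E2F words or CAGCTG in capitals. Mcm6 lies at chr1:128359656-128359955 on the minus strand, Rrm2 at chr12:24708004-24708303 on the plus strand and the first of 2 E2f2 windows at chr4:136172024-136172323 on the plus strand. In Mcm6 the words start at -110, -106 and -47 from the start, and the first 2 overlap. In Rrm2 CAGCTG starts at 44, and in E2f2 TTTGGCGC starts at 40.
Mcm6 promoter: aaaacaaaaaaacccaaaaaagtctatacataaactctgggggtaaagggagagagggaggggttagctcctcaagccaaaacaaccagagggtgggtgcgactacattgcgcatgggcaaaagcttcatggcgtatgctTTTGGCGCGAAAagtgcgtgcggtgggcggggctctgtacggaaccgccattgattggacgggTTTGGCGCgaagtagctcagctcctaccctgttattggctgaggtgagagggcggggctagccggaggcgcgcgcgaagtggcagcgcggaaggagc
Rrm2 promoter: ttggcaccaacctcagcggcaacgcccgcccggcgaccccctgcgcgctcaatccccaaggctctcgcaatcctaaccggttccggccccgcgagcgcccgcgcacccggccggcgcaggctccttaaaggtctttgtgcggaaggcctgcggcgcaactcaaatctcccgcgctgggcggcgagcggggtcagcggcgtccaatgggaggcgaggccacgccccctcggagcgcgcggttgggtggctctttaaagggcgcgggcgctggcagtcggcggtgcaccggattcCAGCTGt
E2f2 promoter: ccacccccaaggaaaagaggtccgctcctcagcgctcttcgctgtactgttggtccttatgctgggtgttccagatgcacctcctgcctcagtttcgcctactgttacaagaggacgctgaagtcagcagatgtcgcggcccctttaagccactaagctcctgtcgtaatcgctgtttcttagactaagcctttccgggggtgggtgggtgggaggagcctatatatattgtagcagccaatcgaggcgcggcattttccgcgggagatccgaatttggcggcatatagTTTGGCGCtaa

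Words of this kind were present in genes that fell, rose or were not called after the Tfap4 siPOOL, and a match or its absence in this window is a description of letters alone. Of the 13 genes with an E2F word, Mcm6 fell, E2f2 rose and 11 were not called, beside 15.4% of all tested genes called. Among the rest of the 32 genes with a window, which had no E2F word, Orc6, Cdc45, Cdc7, Pola2, Pcna and Rrm2 fell and Rfc5, Rpa2 and E2f1 rose. Over all tested genes, with a window or not, 11.1% were called lower and 4.36% higher. E2f1, E2f4, Gmnn and Mcm4 are not among the 13, and the last 3 of them had no window in the table. Gins1, Gins2, Gins4, Pole and Rfc2 had no window either. Of the genes without a window, E2f4, Gmnn, Mcm4, Gins1 and Gins2 fell and Rfc2 rose, so these called genes are missing from the count.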

How the data were processed

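Gene counts were used as the authors deposited them, as whole numbers per gene. Per the labels' protocols, libraries were made from 500 ng of RNA with the QuantSeq 3′ mRNA-Seq FWD kit, and per the submitters' processing notes reads were trimmed with Trim Galore and GRCm38 was the build. Which aligner, counter, strand setting and annotation were used is not given in the sources used here. Symbols, 3′ ends and 3′ UTRs came from GENCODE M21.

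Tests used edgeR 4.0.16 in R 4.3.3: filterByExpr, which kept 15137 genes, TMM scaling, a robust quasi-likelihood fit of 4 group means over the 8 libraries (4 residual degrees of freedom), and Benjamini-Hochberg adjustment at 0.05 over all genes tested. The contrasts were siTfap4 minus siNeg, KO minus WT, and the difference between them. SE is the log2 fold change divided by the root of the F statistic. Depth was 8326675 to 12726123 counts a library. The fits were also run on counts simulated with the spread estimated from these same libraries. That run cannot test whether the spread is right, and no result here rests on it.

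The alternatives were edgeR with size factors from DESeq2 1.42.0, that tool's own Wald test, limma-voom from limma 3.58.1, no filter, a filter of 5 CPM in 2 libraries, the 4 libraries of a comparison alone, the replicate number as a block, an offset from a lowess curve (span 0.3) on the GC of a transcript's last 100 bases, block and offset together, and each library left out, where the lone library of a group is assumed to vary like the others.

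The members and lists were chosen with earlier results of these data known. Values per library are given for genes called in any contrast, the 5 widest uncalled ones per comparison and the most counted gene of each role, and of the 53 further pathway genes up to 6 called ones per comparison.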

Additional observations from a re-analysis of the deposited data

How the results depend on the processing

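The first alternatives were DESeq2 size factors, the DESeq2 Wald test, limma-voom and both filters. For KO against WT they called 1 of the 40 genes, beside 5.78% to 9.94% of all tested genes. For siTfap4 against siNeg they called 16 to 18, beside 7.98% to 21.8%. For the difference they called 10 to 12, beside 8.36% to 19.6%. No called gene changed sign under any alternative. For KO against WT, 4 genes (10%) were called when its 4 libraries were fitted alone, beside 12.9% of all genes, and 2 (5%) with the replicate block and GC offset together, beside 11.4%. For siTfap4 against siNeg, Rpa2 was also not called without a filter (adjusted p = 0.0516, edgeR), nor were Rpa2 (0.119) and E2f1 (0.0662) when the siPOOL libraries were fitted by themselves. The block and offset together gave 15 of 40, beside 14.1% of all genes, with Cdc7 (log2 fold change -0.92, adjusted p = 0.0576), Rpa2 (0.209) and E2f1 (0.069) no longer called and Pola1 called. Rfc4 lost its call for the difference without a filter and with the block. Leaving out 1 library gave 0 to 1 of the 40 for KO against WT, 5 to 22 for siTfap4 against siNeg and 5 to 18 for the difference. Over all tested genes it gave 610 to 857, 499 to 2987 and 1127 to 2766 calls, beside 1506, 2334 and 2400 with all libraries. Calls lost without 1 library have 1 library fewer in 1 group, and the cause was not tested further.

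The labels number the duplicates 1 and 2 in each group and do not say that a number marks a shared culture or day. Deviations of same-numbered libraries correlated at 0.14 for siTfap4 and siNeg and -0.06 for KO and WT. With the replicate block, 1, 17 and 10 of the 40 genes and 1337, 2064 and 2250 of all genes were called. The lowest count of the 40 genes in a library was 51, and counting error is largest there.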
